A study of Mus musculus with 3 samples.

Results

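The microRNAs miR-455 and miR-140 were followed through liver ischemia and reperfusion. All mature microRNAs whose names begin with miR-455- or miR-140- were taken, which gave 4 of the 1908 listed. They were mmu-miR-455-3p, mmu-miR-455-5p, mmu-miR-140-5p and mmu-miR-140-3p, where the prefix for mouse is left out below. Of these, miR-455-3p had been picked for its values, a high level after ischemia and a lower one after reperfusion, so its own changes are described here without a test. The other 3 were taken by name, to ask whether the second arm of the same hairpin, and an intronic microRNA that is also linked to cartilage, do the same. None of these 3 differed between libraries by the fold change of 1.5 used here, and within the miR-455 hairpin the arms parted. The 3p arm was 3.28 times as high in ischemia as in sham liver while the 5p arm stayed at 0.951 times. A description of the 4 as transiently raised in ischemia therefore fits the values of miR-455-3p and not those of the set. For miR-140-5p the depth leaves this undecided, since its interval for ischemia over sham included both no change and the threshold of 1.5.

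Small RNA came from the liver of male mice of the inbred strain C57BL/6J, aged 8 to 10 weeks. The Sham group had a laparotomy without clamping and a wait of 90 min. The warm ischemia (WI) group had the vessels and bile duct of the left and median lobes clamped for 90 min. The ischemia-reperfusion (IR) group had the same clamping followed by 120 min of restored flow. All mice were fasted and operated on under chloral hydrate. Each group had 6 mice and 1 library, and whether a library pools the mice is not given in the sources used here. Nothing below therefore has a replicate check, and every test compares the reads of 2 libraries, not 2 conditions. Time since surgery was longer in IR than in Sham and WI, so reperfusion and time cannot be told apart. In bulk liver, fewer cells of a type and less RNA per cell cannot be told apart either.

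A microRNA hairpin is cut by the enzymes Drosha and Dicer into a short duplex. Either strand, named 5p or 3p after its side of the hairpin, can then be held by an Argonaute protein and guide it to messenger RNAs. The bases that pair first are the seed, positions 2 to 8. Both arms leave the same precursor, and which of them is kept differs between hairpins and tissues. MiR-140 is a well known microRNA of cartilage cells, encoded within Wwp2, the gene of a ubiquitin ligase. MiR-455 is encoded within Col27a1, the gene of a fibrillar collagen of cartilage.

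In the NCBIM37 (mm9) annotation the miR-455 hairpin lies at chr4:62917885-62917966 on the plus strand, in an intron of Col27a1, 128 bases before the next exon. The miR-140 hairpin lies at chr8:110075144-110075213 on the plus strand, in an intron of Wwp2, 964 bases before the next exon. Both are in the same orientation as their host gene.

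The mature sequences are shown because the findings turn on how the arms of each hairpin differ. RefSeq (GRCm38.p6) held 3 of the 4, and miR-140-5p is named only. Capitals mark the seed.
miR-455-3p: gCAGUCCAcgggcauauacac
miR-455-5p: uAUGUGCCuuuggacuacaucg
miR-140-3p: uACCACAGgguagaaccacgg

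In GRCm38.p6, miR-455-5p lies at chr4:63256867-63256888 and miR-455-3p at chr4:63256904-63256924, bases 17 to 38 and 54 to 74 of an 82-base hairpin. MiR-140-3p lies at chr8:107551288-107551308, bases 45 to 65 of a 70-base hairpin. The 3 seeds differ from each other. Among 1679 mature names in the table, the seed of miR-455-3p was found in no other. That of miR-455-5p was shared with miR-5129-3p, which had 2 (Sham), 3 (WI) and 0 (IR) reads. That of miR-140-3p was shared with miR-497b, which had no read in any library. Compared position by position from the 5′ end, the closest other sequence matched miR-455-3p at 12 of 21 bases, miR-455-5p at 14 of 22 and miR-140-3p at 13 of 21. This comparison found no near-identical sequence, though it does not see copies that are shifted along the sequence or missing from the table.

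Reads on microRNAs numbered 3844133 for Sham, 5064014 for WI and 3784539 for IR. Levels are reads per 1000000 (CPM) of library totals after the scaling by trimmed means (TMM) of edgeR, and the floor of 3 reads was 0.758 (Sham), 0.617 (WI) and 0.785 CPM (IR). All intervals refer to counting error alone. The hepatocyte microRNA miR-122-5p stood at 15960, 18999 and 15364 CPM in Sham, WI and IR and miR-122-3p at 1095, 1122 and 1067 CPM, so the defining microRNAs of the labelled tissue were present. Calls required a fold change of more than 1.5 and an unadjusted Fisher's exact p below 0.01. This called 1 of the 4 between WI and Sham, where 1.92% of 782 tested microRNAs were called. It called 1 of the 4 between IR and WI, where 9.25% of 789 were called, and 0 of the 4 between IR and Sham, where 7.11% of 774 were called. The called one was miR-455-3p both times, the microRNA picked from those contrasts, so nothing is read from these counts.

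MiR-455-3p had 86 (Sham), 347 (WI) and 110 (IR) reads. Its levels were 21.7 CPM (95% exact Poisson interval 17.4 to 26.8), 71.3 CPM (64.0 to 79.2) and 28.8 CPM (23.6 to 34.7). The WI library stood alone at the top, and the intervals of Sham and IR overlapped. The level in WI was 3.28 times that in Sham (95% interval 2.59 to 4.21), a log2 fold change of 1.71 (SE 0.17). From WI to IR it was 2.48 times lower, a log2 fold change of -1.31 (SE 0.16). IR over Sham gave a ratio of 1.32, with an interval of 0.990 to 1.78 that included 1. In WI the microRNA moved from abundance rank 205 of Sham to rank 145, and it stood at rank 191 in IR.

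MiR-455-5p, the other arm of the same hairpin, had 237 (Sham), 277 (WI) and 235 (IR) reads. These were 59.8 CPM (interval 52.5 to 68.0), 56.9 CPM (50.4 to 64.1) and 61.5 CPM (53.8 to 69.8). The 3 levels lay within each other's intervals, and WI was the lowest and not the highest. WI over Sham was 0.951 (0.797 to 1.14, Fisher's exact p = 0.595, 0.959 after Benjamini-Hochberg adjustment over all microRNAs tested). The counting interval left out the threshold ratio of 1.5. IR over WI was 1.08 (0.903 to 1.29, adjusted Fisher's exact p = 0.789) and IR over Sham was 1.03 (0.854 to 1.24, adjusted p = 1). The sign of these small differences depended on the scaling, and none was called under any setting tried.

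**Figure D1:**
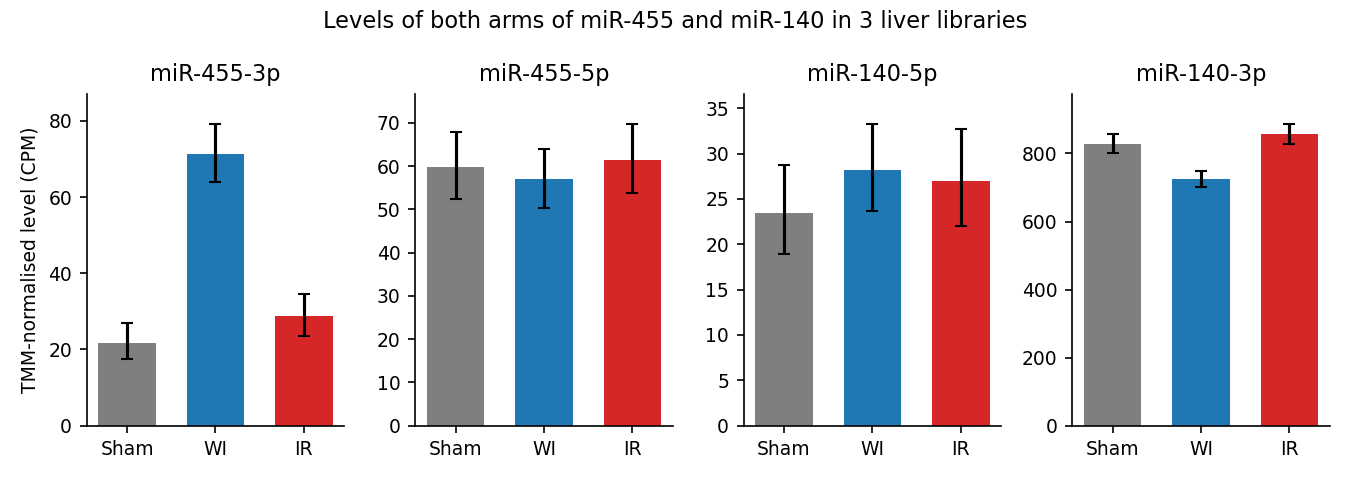
TMM-normalised level in CPM (vertical axes, each from 0 and on its own scale) of miR-455-3p, miR-455-5p, miR-140-5p and miR-140-3p in the Sham, WI and IR libraries (1 per group). Error bars are 95% exact Poisson intervals; miR-455-3p reaches 71.3 CPM in WI, while miR-455-5p lies between 56.9 and 61.5 CPM in all 3.

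MiR-140-5p is the guide strand best known from cartilage, where it represses the protease Adamts5 among others. It had 93 (Sham), 137 (WI) and 103 (IR) reads, or 23.5 CPM (interval 19.0 to 28.8), 28.2 CPM (23.6 to 33.3) and 26.9 CPM (22.0 to 32.7). WI was the highest and Sham the lowest, but the 3 intervals overlapped. WI over Sham was 1.20 (0.915 to 1.58, Fisher's exact p = 0.185, adjusted 0.689), a log2 fold change of 0.26 (SE 0.19). The interval included both 1 and 1.5, so this depth could not tell no change from a change of the size of the threshold. IR over WI was 0.956 (0.733 to 1.24, adjusted Fisher's exact p = 1) and IR over Sham was 1.15 (0.858 to 1.53, adjusted p = 0.844).

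MiR-140-3p was by far the most read of the 4, with 3284 (Sham), 3530 (WI) and 3280 (IR) reads. Its levels were 829 CPM (801 to 858), 726 CPM (702 to 750) and 858 CPM (829 to 888). WI was the lowest, outside the intervals of the other libraries, which overlapped each other. WI over Sham was 0.875 (0.834 to 0.918), a log2 fold change of -0.19 (SE 0.03; Fisher's exact p = 3.87e-08, adjusted 6.18e-07). IR over WI was 1.18 (1.13 to 1.24; Fisher's exact p = 5.57e-12, adjusted 6.37e-11), and IR over Sham was 1.03 (0.985 to 1.09, adjusted Fisher's exact p = 0.574). Both differences from WI exceeded counting error and were below the fold threshold, so neither was called. They also depended on the settings. With totals of genome-aligned reads the log2 fold change was -0.037 for WI against Sham (Fisher's exact p = 0.297) and -0.083 for IR against WI. With an assumed coefficient of variation of 0.1 between libraries, edgeR's exact test gave p = 0.354 for WI against Sham.

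Placed side by side over 317 microRNAs with at least 50 reads over the 3 libraries, the 4 fell far apart. Between WI and Sham, 2 microRNAs had a higher log2 fold change than miR-455-3p, 74 had a higher one than miR-140-5p, 215 than miR-455-5p and 253 than miR-140-3p. Between IR and WI, 4 had a lower log2 fold change than miR-455-3p. There, 147 lay below miR-140-5p, 217 below miR-455-5p and 253 below miR-140-3p. Both comparisons use the WI library, so a count that is high or low there by error enters both with opposite sign. The median log2 fold change of the 317 was 0.05 for WI over Sham and -0.04 for IR over WI.

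**Figure D2:**
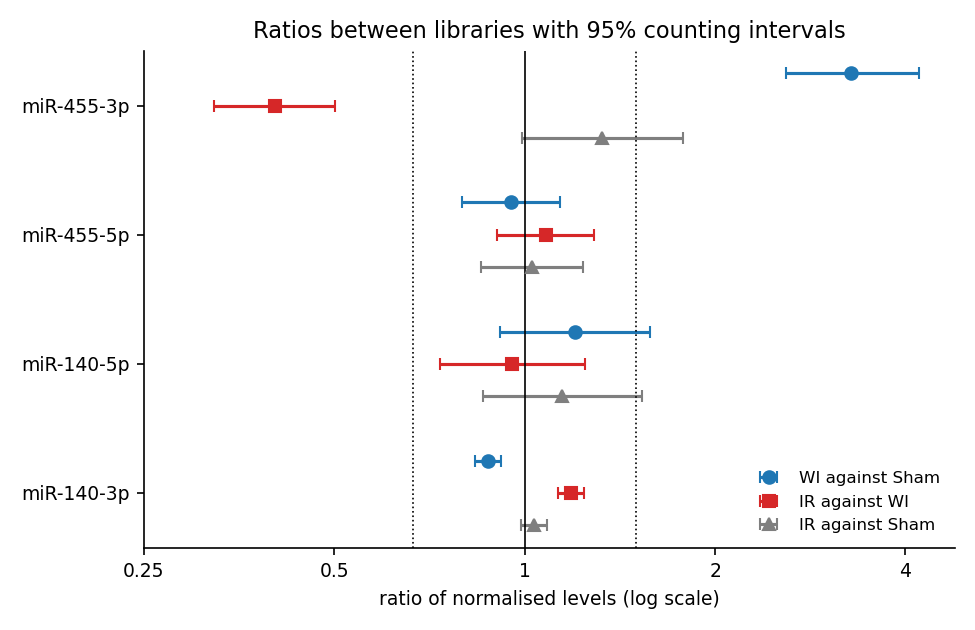
Ratio of normalised levels (log scale) for each of the 4 microRNAs in WI against Sham (circles), IR against WI (squares) and IR against Sham (triangles). Bars are 95% counting intervals from exact binomial (Clopper-Pearson) limits, the solid line marks 1 and the dotted lines mark a fold change of 1.5; only miR-455-3p has intervals wholly beyond the dotted lines, in WI against Sham and when IR is set against WI.

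The reads of both arms of a hairpin were then compared within each library, a share that needs no scaling between libraries. It is a share of reads and not of molecules. For miR-455, the 3p arm gave 86 of 323 reads in Sham, or 26.6% (95% Wilson interval 22.1 to 31.7). In WI it gave 347 of 624, or 55.6% (51.7 to 59.5), and in IR 110 of 345, or 31.9% (27.2 to 37.0). The 5p arm was thus the more abundant in Sham and IR, at 2.76 and 2.14 times the reads of the 3p arm, and the 3p arm was the more abundant in WI, at 1.25 times the reads of the 5p arm. The Sham and IR intervals overlapped and the WI interval lay apart from both. These shares contain the reads for which miR-455-3p was picked, so no test is given. Both arms together came to 81.6 (Sham), 128 (WI) and 90.2 (IR) CPM.

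For miR-140, the 3p arm dominated in every library. It gave 3284 of 3377 reads in Sham, or 97.2% (interval 96.6 to 97.7), 3530 of 3667 in WI, or 96.3% (95.6 to 96.8), and 3280 of 3383 in IR, or 97.0% (96.3 to 97.5). The 5p arm was therefore read at 2.75%, 3.74% and 3.04% of the hairpin, highest in WI. Fisher's exact test of 3p against 5p reads gave p = 0.0224 for WI against Sham, which did not hold after adjustment over 83 hairpins (adjusted p = 0.109). It gave adjusted p = 0.327 for IR against WI and 0.723 for IR against Sham. The direction was also opposite to that of miR-455, since the 3p share of miR-140 was lowest in WI.

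**Figure D3:**
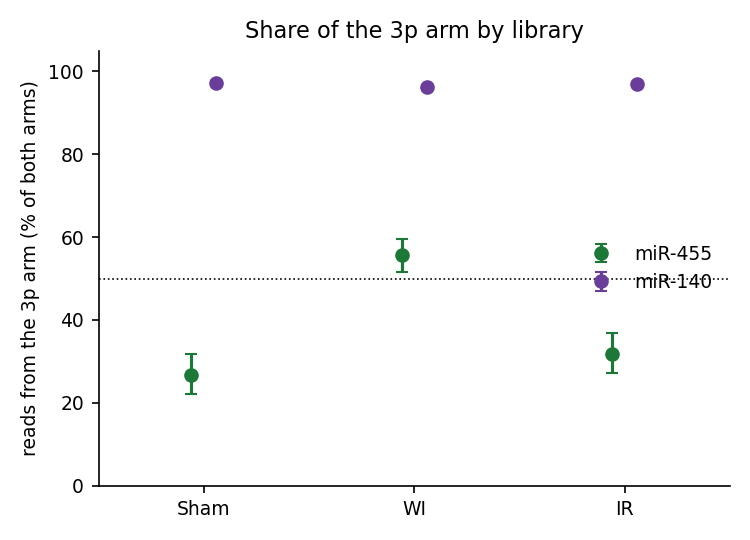
Percentage of the reads of both arms that came from the 3p arm (vertical axis) for miR-455 and miR-140 in the Sham, WI and IR libraries. Error bars are 95% Wilson intervals and the dotted line marks 50%; miR-455 crosses it in WI (55.6%) and lies at 26.6% in Sham and 31.9% in IR, while miR-140 stays between 96.3% and 97.2%.

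The shift of the miR-455 arms was set beside that of all hairpins with at least 50 reads on each arm over the 3 libraries, a comparison chosen after the values had been seen. Over these 83 hairpins, the median absolute shift of the log2 ratio of 3p to 5p reads from Sham to WI was 0.22, and for miR-455 the shift was 1.78, the largest of the 83. The next was that of miR-27a, at -1.28, and that of miR-140 was -0.45, the 16th by absolute size. These places are a description, since the shift of miR-455 is made from the 3p reads for which it was picked. From WI to IR the shift of miR-455 was -1.42, the lowest of the 83 and the 4th by absolute size, and that of miR-140 was 0.30. From Sham to IR it was 0.37 for miR-455, the 27th by absolute size, near the median absolute shift of 0.30. The arm with the majority of reads was not the same in all 3 libraries for 4 of the 83 hairpins, namely miR-455, miR-212, miR-324 and miR-423. With at least 20 reads on each arm, miR-455 ranked 3 of 104 from Sham to WI, and with at least 100 it ranked 1 of 66.

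**Figure D4:**
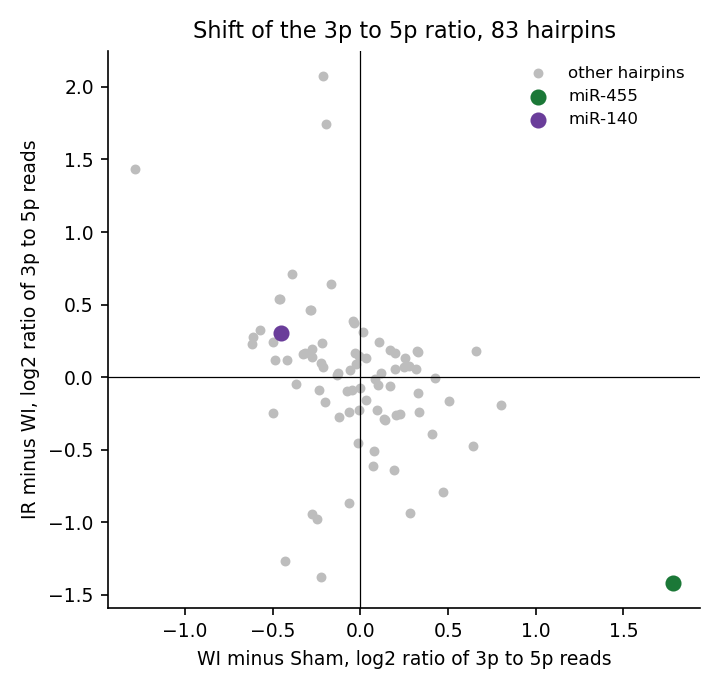
Change in the log2 ratio of 3p to 5p reads from Sham to WI (horizontal) and from WI to IR (vertical), with 0.5 read added to each arm, for 83 hairpins with at least 50 reads on each arm (grey, other hairpins). Both axes use the WI library; miR-455 lies at 1.78 and -1.42, in the lower right corner, and miR-140 at -0.45 and 0.30.

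The microRNAs whose course was most like that of miR-455-3p were found by the distance between pairs of log2 fold changes, WI against Sham and IR against WI, over the same 317 microRNAs and 3 libraries. The nearest 5 were miR-33-5p (distance 0.49), miR-27a-5p (0.54), miR-190a-5p (0.92), miR-1249-3p (0.97) and miR-1247-5p (1.07). MiR-140-5p came at place 91 of 316, miR-455-5p at 220 and miR-140-3p at 252. MiR-33-5p, which represses the cholesterol exporter Abca1 and lies within Srebf2, had 21 (Sham), 61 (WI) and 18 (IR) reads. MiR-27a-5p had 24, 67 and 20 reads, miR-190a-5p had 16, 39 and 18, miR-1249-3p had 25, 64 and 33, and miR-1247-5p had 78, 151 and 53. All 5 were highest in WI, which the choice by likeness fixes, and had fewer reads there than the 347 of miR-455-3p. Of the 317, 8 exceeded a fold change of 1.5 upward in WI and downward in IR, namely miR-455-3p, the nearest 5, miR-222-5p and miR-375-3p. Both steps were called for 4 of them, miR-1247-5p, miR-27a-5p, miR-33-5p and miR-455-3p.

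The second arms of these 5 hairpins were read as well, a choice made after the values had been seen. MiR-27a-3p, the major arm, had 827 (Sham), 762 (WI) and 794 (IR) CPM, with WI the lowest, whereas the minor arm miR-27a-5p was highest there and was called. The share of the 3p arm of miR-27a was 99.3% in Sham, 98.2% in WI and 99.3% in IR. MiR-33-3p had 7, 23 and 13 reads and miR-1247-3p had 24, 40 and 5 reads, both highest in WI like their partners. Neither was called between WI and Sham, at log2 fold changes of 1.37 (SE 0.59) for miR-33-3p and 0.43 (SE 0.37) for miR-1247-3p. Those of miR-33-5p and miR-1247-5p were 1.23 (SE 0.36) and 0.65 (SE 0.20). With so few reads a missing call is not read as no change. MiR-1247-3p was called lower in IR against WI (log2 fold change -2.56, SE 0.64) and against Sham (-2.13, SE 0.67). MiR-190a-3p and miR-1249-5p had at most 3 reads in any library, too few to compare.

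**Figure D5:**
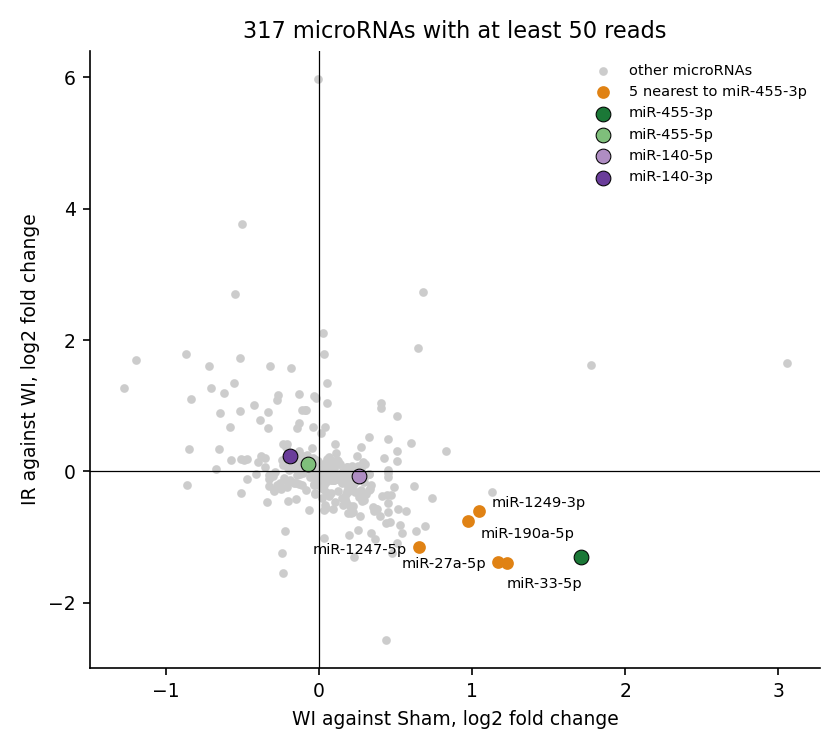
Log2 fold change of WI against Sham (horizontal) and of IR against WI (vertical) for 317 microRNAs with at least 50 reads over the 3 libraries, with the 4 members and the 5 microRNAs nearest to miR-455-3p marked. Both axes share the WI library; miR-455-3p lies at 1.71 and -1.31, while miR-455-5p, miR-140-5p and miR-140-3p lie near the origin.

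Other microRNAs linked to cartilage or cartilage cells were examined as a list of 10. All were listed and 8 had a read. MiR-675-3p and miR-675-5p, made from the H19 transcript, had none. Between WI and Sham 0 of the 8 were called, where 1.92% of all tested were, with a median log2 fold change of 0.08 beside 0.05 over all 782 tested. The most abundant was miR-148a-3p, with 74623 (Sham), 84092 (WI) and 62835 (IR) CPM. MiR-193b-3p had 40, 63 and 34 reads and was highest in WI, but its log2 fold change of 0.36 (SE 0.29) was not called. Between IR and WI, 1 of the 8 was called higher and 0 lower, near the 9.25% of all tested, with a median of -0.03 beside -0.01 over all 789. It was miR-9-5p, with 3 (Sham), 4 (WI) and 29 (IR) reads, which was also the 1 called in IR against Sham, where 7.11% of all tested were called and the median was -0.01 beside 0.04 over all 774.

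Markers of other cells were read beside miR-455-3p. Of the 5 stromal microRNAs (miR-143-3p, miR-145a-5p, miR-199a-3p, miR-199a-5p and miR-214-3p) 0 were called in any comparison. The share of all tested that was called was 1.92% for WI against Sham, 9.25% for IR against WI and 7.11% for IR against Sham. Beside these shares nothing is read from the count. MiR-145a-5p and miR-199a-5p were also in the list linked to cartilage. The summed level of the 5 was 39670 (Sham), 43072 (WI) and 35224 (IR) CPM, of which miR-143-3p made up 38597, 42013 and 34215 CPM. Of the endothelial pair, miR-126a-5p had 16311, 19832 and 14583 CPM and was highest in WI, while miR-126a-3p had 2956, 2951 and 2985 CPM. Of this pair 0 were called in any comparison, and beside the same shares nothing is read from that count either. MiR-210-3p, the microRNA best known for induction by low oxygen, had 34.1 (Sham), 40.7 (WI) and 43.1 (IR) CPM and was not called.

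The muscle microRNA miR-133a-3p had 27 reads in the Sham library and 115 in the WI library. It stood at 280 in the IR library, where miR-455-3p was low again. Of the 7 muscle microRNAs listed, 6 had a read, and all but miR-133a-3p had at most 6 reads in any library. MiR-208a-3p had none, which allows a level of up to 0.758, 0.617 and 0.785 CPM in that order of libraries. The summed muscle level was 6.82, 25.1 and 76.6 CPM, of which miR-133a-3p made up 6.82, 23.6 and 73.2 CPM. The part of muscle RNA in the level of miR-455-3p was not tested.

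The 4 leukocyte microRNAs summed to 3074 (Sham), 3037 (WI) and 2792 (IR) CPM, most of it miR-142-5p, listed under its older name, with 2735, 2672 and 2342 CPM. The others differed in direction. MiR-223-3p was highest in IR (110, 109 and 236 CPM), miR-150-5p lowest there (119, 104 and 95.4 CPM), and miR-142-3p highest in WI (110, 152 and 119 CPM, a log2 fold change of 0.47 over Sham that was not called). The 3 red cell microRNAs summed to 4926, 4651 and 8824 CPM. MiR-486-5p (3809, 3585 and 6863 CPM), for which the near-equal reads of miR-3107-5p leave separate counting uncertain, and miR-451a (1037, 959 and 1838 CPM) were lowest in WI, while miR-144-3p was lowest in Sham (79.8, 107 and 123 CPM). Between WI and Sham 0 of these 7 were called, where 1.92% of all tested microRNAs were, so nothing is read from that count. In IR against WI, miR-223-3p, miR-451a and miR-486-5p were called higher, where 9.25% of all tested were called. In IR against Sham, these and miR-144-3p were called higher, where 7.11% were called. None of the 7 was called lower in either comparison. The part of these cells in the level of miR-455-3p was not tested.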

How the data were processed

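Libraries of Sham, WI and IR mouse liver, 1 each, were assigned to groups by sample title. The files deposited by the authors give raw counts of reads for each mature microRNA. The authors trimmed and size-selected reads, aligned them with Bowtie 0.12.7, classified them by RNA type using HTSeq and ran miRDeep2 for the mature counts, without molecular identifiers. The methods name the mm9 genome and the submitters' processing notes name mm10. The count files hold no coordinates.

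Counts were scaled with TMM in edgeR 4.0.16 (R 4.3.3). Log2 fold changes used CPM + 0.1, with SE from the read counts. The two-sided Fisher's exact test in scipy 1.17.1 was run on reads and scaled totals over all microRNAs read in the libraries compared. The fold of 1.5 and p of 0.01 follow the study's methods. The study reports more differentially expressed microRNAs than were called here, both for WI against Sham (15 here) and for IR against Sham (55 here). Its formula divides by totals of mapped reads, while totals of microRNA reads were scaled here. With genome-aligned totals and no TMM factor, 25 (WI against Sham) and 62 (IR against Sham) were called. The reason was not tested. With no replicates, no quasi-likelihood model was fitted. Ratio intervals are exact binomial, levels exact Poisson, shares Wilson, all at 95%. The calling step was also run on simulated data, from which nothing is read about variation between animals or libraries. The named microRNAs were the 4 members, the 5 nearest to miR-455-3p, seed mates, and called, abundant or illustrative members of the lists. The members, lists and rules were chosen with earlier results of these data known. MiR-142a-3p, miR-142a-5p and miR-486a-5p of the lists were matched to the older names miR-142-3p, miR-142-5p and miR-486-5p through RefSeq synonyms. Alternatives changed the scaling, pseudocount, depth, read minimum, test and thresholds.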

Additional observations from a re-analysis of the deposited data

How the results depend on the processing

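The levels of the 4 microRNAs were compared under 13 other settings, which gave 156 values. Of these, 146 had the reported direction and call, 2 were no longer called and 8 had the other sign. The 2 were those of miR-455-3p under an assumed coefficient of variation of 0.4, whose log2 fold changes stay at 1.71 (WI over Sham) and -1.31 (IR over WI). Settings that changed only the test or the thresholds kept every log2 fold change, so no sign could change under them. The uncalled contrasts lay below the fold threshold, so under these settings no call could be gained either. The called contrasts are those of miR-455-3p, which was picked for its values. The tally is therefore not read as a measure of robustness. Over all settings miR-455-3p ranged from 1.61 to 1.86 for WI over Sham and from -1.62 to -1.23 for IR over WI. The values of other sign were never called. With genome-aligned totals, miR-455-5p was 0.084 for WI over Sham, -0.21 for IR over WI and -0.13 for IR over Sham, and miR-140-3p was -0.083 for IR over WI and -0.12 for IR over Sham. With the 10 most abundant left out of the totals, miR-455-5p was -0.026 and miR-140-3p -0.016 for IR over Sham. With library totals, miR-140-5p was 0.0086 for IR over WI. Genome-aligned totals shift the median of the 317 microRNAs to 0.20 for WI over Sham, -0.36 for IR over WI and -0.16 for IR over Sham. After thinning to equal depth the 3p share of miR-455 was 26.7% (Sham), 56.2% (WI) and 31.9% (IR).

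Calls over all microRNAs numbered 15, 73 and 55 in that order. With genome-aligned totals they were 25 for WI over Sham, split 23 higher and 2 lower (11 and 4 with TMM), and 111 for IR over WI, split 38 and 73 (49 and 24 with TMM). For IR over Sham these totals gave 35 higher and 27 lower (44 and 11 with TMM). DESeq2 size factors, like a minimum of 10 reads, split WI over Sham 10 and 6. The split was 7 and 10 with library totals, and 8 and 9 without the 10 most abundant. With a coefficient of variation of 0.2 they were 4, 33 and 24, and with 0.4 they were 1, 6 and 10. At a fold change above 2, WI over Sham gave 9 and IR over Sham 35. Leaving out a replicate could not be done, and no paired analysis was possible because each group has 1 library. Depth limits the IR over Sham ratios of miR-455-3p and miR-140-5p, whose intervals include both 1 and 1.5.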
